A study of Ictalurus furcatus with 60 samples.

Results

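The genes described here are those whose differences between male blue catfish were most alike in fresh and cryopreserved sperm. There are 200 of them, out of 33677 genes in the deposited tables and 21577 genes that reached a mean level of 5 CPM (counts of a gene per 1000000 counts of its library) and were ranked. They were chosen from the measured values. In each treatment the level of every gene, as log2(CPM + 1), was regressed on the log2 of the library's median CPM over all genes. The residuals of the fresh and the cryopreserved library were then correlated over the males, and the 200 genes with the highest Pearson r were taken. That r is therefore a description of the set and carries no test.

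Sperm of 30 male blue catfish (Ictalurus furcatus), whose sperm aquaculture uses to fertilise eggs of the channel catfish, gave 60 RNA-seq libraries in 2 groups of 30. In the group labelled fresh, a share of each male's sperm went straight into a deep freezer. In the group labelled cryopreserved, the other share of the same male's sperm was taken through a cryopreservation procedure. Each male has 1 library per treatment, so a level that both libraries share cannot be told apart from anything else that both samples of a male had in common. Strain, age and hatch success of the males were not used here.

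Mature sperm make little or no new RNA, and most of what they carry was transcribed earlier, while the germ cells matured in the testis. The RNA of a sperm sample can also come from other cells of the milt, such as blood or testis cells, and in bulk RNA fewer cells of a type and less RNA per cell cannot be told apart. Freezing and thawing can break sperm membranes, through which RNA can be lost. The files do not pair the gene identifiers with names, and 0 of the 33677 identifiers matched the 26870 genes of the RefSeq table for the assembly Billie_1.0. No member can thus be given a function, a marker check of the sperm samples could not be made, and members are called by their rank in r (rank 1 is the highest), with the identifier for 4 of them.

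Total counts ran from 929243 to 62118941 per library. Of the 60 libraries, 17 held under 50% of the median total, and these came from 10 males (8, 9, 11, 12, 15, 34, 35, 36, 39 and 41). In the shallowest library 3 counts amount to 3.23 CPM, which is close to the minimum mean level of a member. Libraries also differed in their median CPM, and in some males between treatments. The median was 13.4 to 13.6 in the fresh libraries of males 1 to 3 and 3.69 to 5.92 in their cryopreserved libraries, whereas it was 3.86 in the fresh and 13.4 in the cryopreserved library of male 4. Other males shifted likewise, with 5.93 fresh and 13.7 cryopreserved in male 28, 5.32 and 13.0 in male 41, and 10.4 and 3.91 in male 35. A swap of the labels of male 4 was not tested for. Of the 200 members, 185 were among the first 200 again without that male.

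The 200 members had an r of 0.761 to 0.910 with a median of 0.793. Over all ranked genes the median r was 0.221, and 18.3% of genes had an r below 0. There was no break at the edge of the set: the last gene inside had an r of 0.76143 and the first gene outside 0.76136. Ranking males instead of using their residuals as measured gave the members a median Spearman's rho of 0.741. In levels as they are, without the residuals, the median r was 0.734, against 0.510 for all ranked genes.

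The members were not unusually abundant. Their mean level over the 60 libraries had a median of 22.2 CPM and ran from 5.00 to 1158 CPM, and the median was 21.3 CPM over all ranked genes. CPM is not corrected for gene length, so these levels do not order the genes by transcript number. The median spread between males was wider in members than in all ranked genes. Among members, the median SD of log2(CPM + 1) over the 30 males was 1.25 (fresh) and 1.22 (cryopreserved), and among all ranked genes 0.98 and 1.02. The widest member had an SD of 3.01 in fresh sperm and the narrowest 0.20, beside 4.34 and 0.10 over all ranked genes. The SD was larger in cryopreserved than in fresh sperm in 110 of the 200 members, and in 56.7% of all ranked genes.

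Few members were on/off. A member was called on/off when at least 2 males were under 1 CPM in both libraries, at least 2 were at 5 CPM or more in both, and at most 6 of the 30 males were neither. Only 1 of the 200 members met this (0.5%), against 7 of the 21577 ranked genes (0.0324%). The other 199 failed these thresholds, which does not by itself make their levels smooth: the 24 stepped members described next are among them. In 153 members no male was under 1 CPM in both libraries, and in 100 members every one of the 60 libraries was at 1 CPM or above.

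The 1 on/off member was AUIFUG00000024941 (rank 138, r of 0.779). It ranged in fresh sperm from 0.251 over a median of 6.73 to 23.7 CPM, and in cryopreserved sperm from 0.122 over a median of 7.41 to 17.2 CPM. The males under 1 CPM in both libraries were male 6, at 0.251 CPM fresh and 0.441 CPM cryopreserved, and male 8, at 0.354 and 0.122 CPM. In counts these were 3 and 4 reads for male 6, and 1 read in each library of male 8. At the other end stood male 9, highest in both treatments with 23.7 and 17.2 CPM. A requirement of 10 CPM or more for the on state, or of at most 3 males in between, left 0 members, so the call rests on the thresholds.

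Another way of looking for steps asked whether the males fell into a low and a high side, with at least 3 males on each, such that no residual of one side overlapped the other in either treatment. This was so for 24 of the 200 members (12%) and for 135 of the 21577 ranked genes (0.626%). Since members were picked for agreement between treatments, a higher share among them follows in part from the choice and is given as a description. Any gap above 0 between the sides counted as a step, so many steps were small. The gap was over 0.5 in log2 units in 4 of the 24 members, and in 5 of all ranked genes. Of the 24 stepped members, 8 had 3 or 4 males on the low side, 13 had 3 or 4 males on the high side and 3 had 6 to 24 males on the low side. Male 9 was among the high males in 9 of the 13.

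The widest step was that of the rank 8 member (r of 0.875). This and the other members given only by rank were picked as examples after their values were seen. In males 11, 34 and 36 it was at 1.62 to 1.90 CPM in fresh and 2.91 to 4.61 CPM in cryopreserved sperm. In the other 27 males it ran from 17.6 over a median of 50.6 to 81.5 CPM in fresh sperm and from 22.6 over a median of 56.9 to 91.3 CPM in cryopreserved sperm. The sides did not overlap in CPM in either treatment. All 3 low males had a shallow library, and the lowest of their libraries held 3 reads of this gene. Among the 20 males without a shallow library, where these 3 males are missing, its r was 0.579. This and the other values for these 20 males come from a regression refitted to them unless stated otherwise.

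The rank 9 member (r of 0.873) split the males more evenly. In 10 males (1, 2, 5, 12, 16, 20, 23, 25, 31 and 34) it was at 0.683 to 2.59 CPM fresh and 0.916 to 2.18 CPM cryopreserved. In the other 20 males it was at 1.75 to 16.9 CPM fresh and 3.38 to 20.6 CPM cryopreserved. In some males with a shallow library the side rested on few reads. Male 34 (low side) had 3 reads fresh and 6 cryopreserved, and male 36 (high side) had 3 and 7. The sides overlapped in CPM in fresh but not in cryopreserved sperm. Of all members it had the highest r among the 20 males without a shallow library, at 0.949.

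The rank 18 member (r of 0.856) covered the widest range among the examples. It was low in males 2, 4, 23, 28, 34 and 37, at 0.758 to 12.1 CPM fresh and 0 to 4.38 CPM cryopreserved. In the other 24 males it reached a median of 88.8 and a highest level of 373 CPM in fresh sperm, and a median of 81.7 and a highest level of 315 CPM in cryopreserved sperm, with lowest levels of 4.56 and 3.42 CPM that overlapped the low side. In male 37, the male with the deepest library, it was at 1.13 CPM fresh and 2.96 CPM cryopreserved, while male 20 had 276.8 and 315 CPM. Its r was 0.841 in the 20 males without a shallow library.

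The rank 26 member (r of 0.843) was low in males 2, 23 and 31 relative to the median of their libraries. Its level there was 14.2 to 14.8 CPM fresh and 11.9 to 14.3 CPM cryopreserved. Other males reached as low as 10.3 and 10.7 CPM, so the step exists in the residuals and not in CPM as it is. Its r was 0.874 in the 20 males without a shallow library.

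The rank 3 member (r of 0.893, rho of 0.871) was graded and had its lowest level in male 9, at 3.05 CPM fresh and 3.83 CPM cryopreserved. Over all males it had a median of 45.6 CPM with a highest level of 114.6 CPM in fresh sperm, and a median of 41.8 CPM with a highest level of 101.8 CPM in cryopreserved sperm. Leaving out male 9 lowered its r to 0.852, so the other males carried the relation too.

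**Figure D1:**
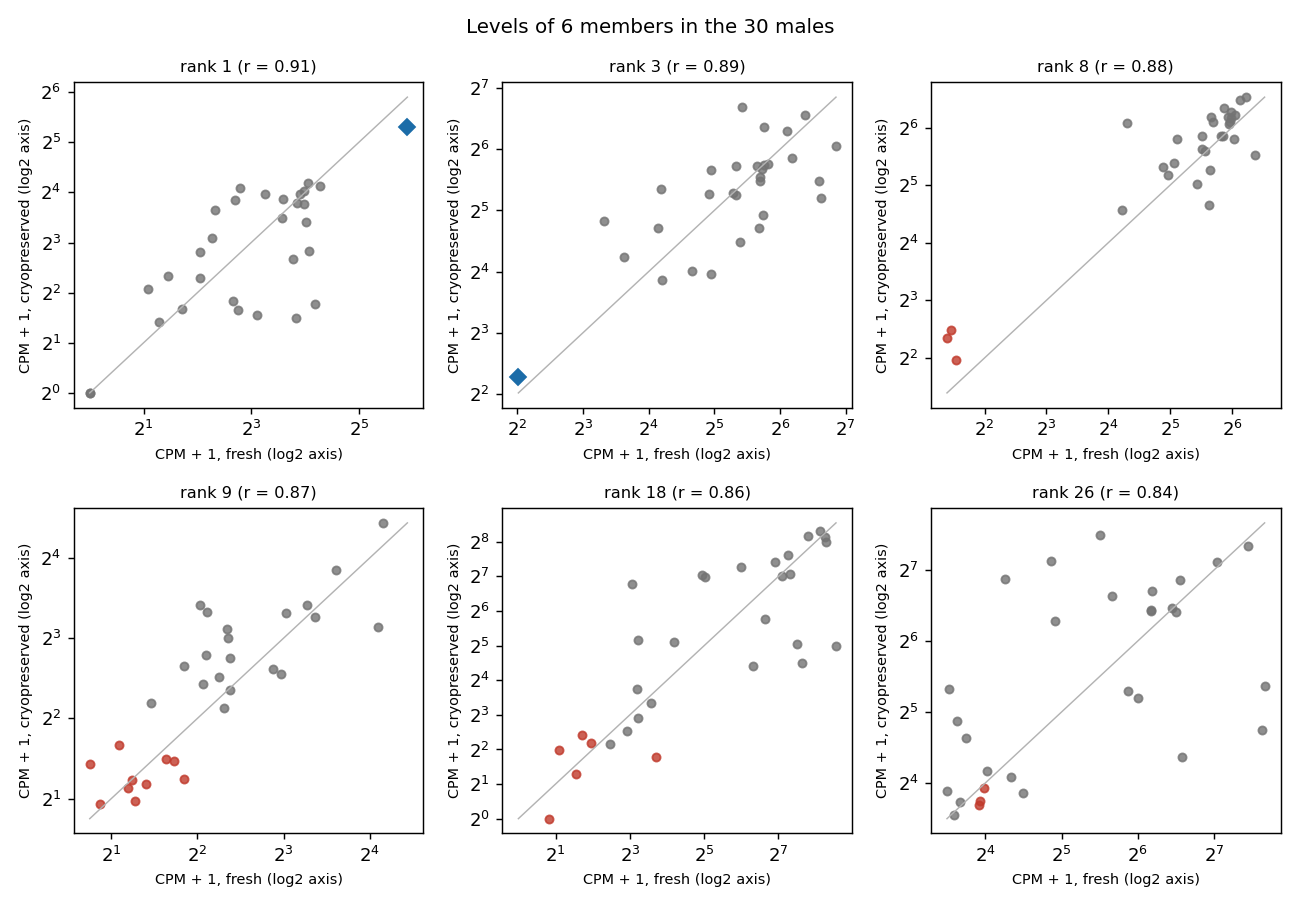
Level of 6 members in fresh (x axis) and cryopreserved (y axis) sperm, as CPM + 1 on log2 axes, with 1 point per male and the line of equal levels. Red points are the males on the low side of the stepped members of ranks 8, 9, 18 and 26. The rank 1 member is stepped too, but its sides are not coloured. The blue diamond is male 9, which lies far above the other males in the rank 1 member and at the bottom of the rank 3 member. In the rank 8 member the 3 low males stand clear of the other 27.

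The member with the highest r was AUIFUG00000013291 (rank 1, r of 0.910). It ranged from 0 over a median of 8.07 to 58.8 CPM in fresh sperm, and from 0 over a median of 6.80 to 38.7 CPM in cryopreserved sperm. Both highest values were those of male 9, with 154 and 101 reads. The next level in fresh sperm was 18.5 CPM and in cryopreserved sperm 17.2 CPM, so male 9 stood alone in CPM. In residuals this member was stepped, with males 8, 9 and 12 on the high side. Male 12 was at 5.31 CPM fresh and 2.56 CPM cryopreserved, below the median of all males in both treatments. The sides thus overlapped in CPM. Without male 9 the r was 0.799, in ranks of males it was 0.686, and in the 20 males without a shallow library, which leave out male 9, it was 0.106 with the regression refitted and 0.475 with the line of the 30 males kept.

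How far r rested on 1 male was asked of every member by leaving out each male in turn. The lowest r so reached had a median of 0.745. It stayed at 0.7 or above in 156 of the 200 members and fell below 0.5 in 10 members, in 9 of these when male 9 was left out. Male 9 was the male whose absence lowered r most in 57 members, followed by males 6 and 11 with 18 members each and male 39 with 17. Male 9 had the highest residual in both treatments in 54 members, male 39 in 15, male 8 in 12 and male 11 in 8. In 106 members the same male was highest in both treatments, and in 51 members the same male was lowest in both. A choice by the highest Pearson r favours genes with 1 male far out in both libraries. These counts thus follow in part from the choice, and they were not made over all ranked genes.

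The members varied together in part. Over the 30 males, the r between 2 members, taken on the mean of the fresh and the cryopreserved residual, had a median of 0.15, against 0.012 among all ranked genes. Its absolute value had a median of 0.247, close to the 0.217 of all ranked genes. The members differed more in the share of tight pairs: 3148 of their 19900 pairs (15.8%) had an r of 0.7 or more, against 1.44% of the pairs of all ranked genes. The r of a pair uses the residuals by which members were chosen. This contrast can thus follow in part from the choice and is given as a description. An r of -0.5 or less was found in 638 pairs of members (3.21%) and in 3.98% of the pairs of all ranked genes. Of the 2521 pairs that reached 0.7 in fresh sperm, 90.4% also did so in cryopreserved sperm, and of the 3015 that reached it in cryopreserved sperm, 75.6% also did so in fresh sperm. Members were chosen for like residuals in both treatments, which carries a pair's r from one treatment to the other, so these shares are no finding. All members were measured in the same libraries, so anything that a library does to many genes enters these values.

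Average linkage at an r of 0.7 put 126 members into 4 groups of 5 or more, with 69, 42, 10 and 5 members. A further 27 members formed 13 groups of 2 to 4, and 47 members joined no other. The last 2 kinds, 74 members in all, are called ungrouped below. Only 2 pairs of members had consecutive identifier numbers, with an r of 0.00 and -0.09 between them. The map of residuals shows the 4 groups as blocks and the ungrouped members as single rows.

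**Figure D2:**
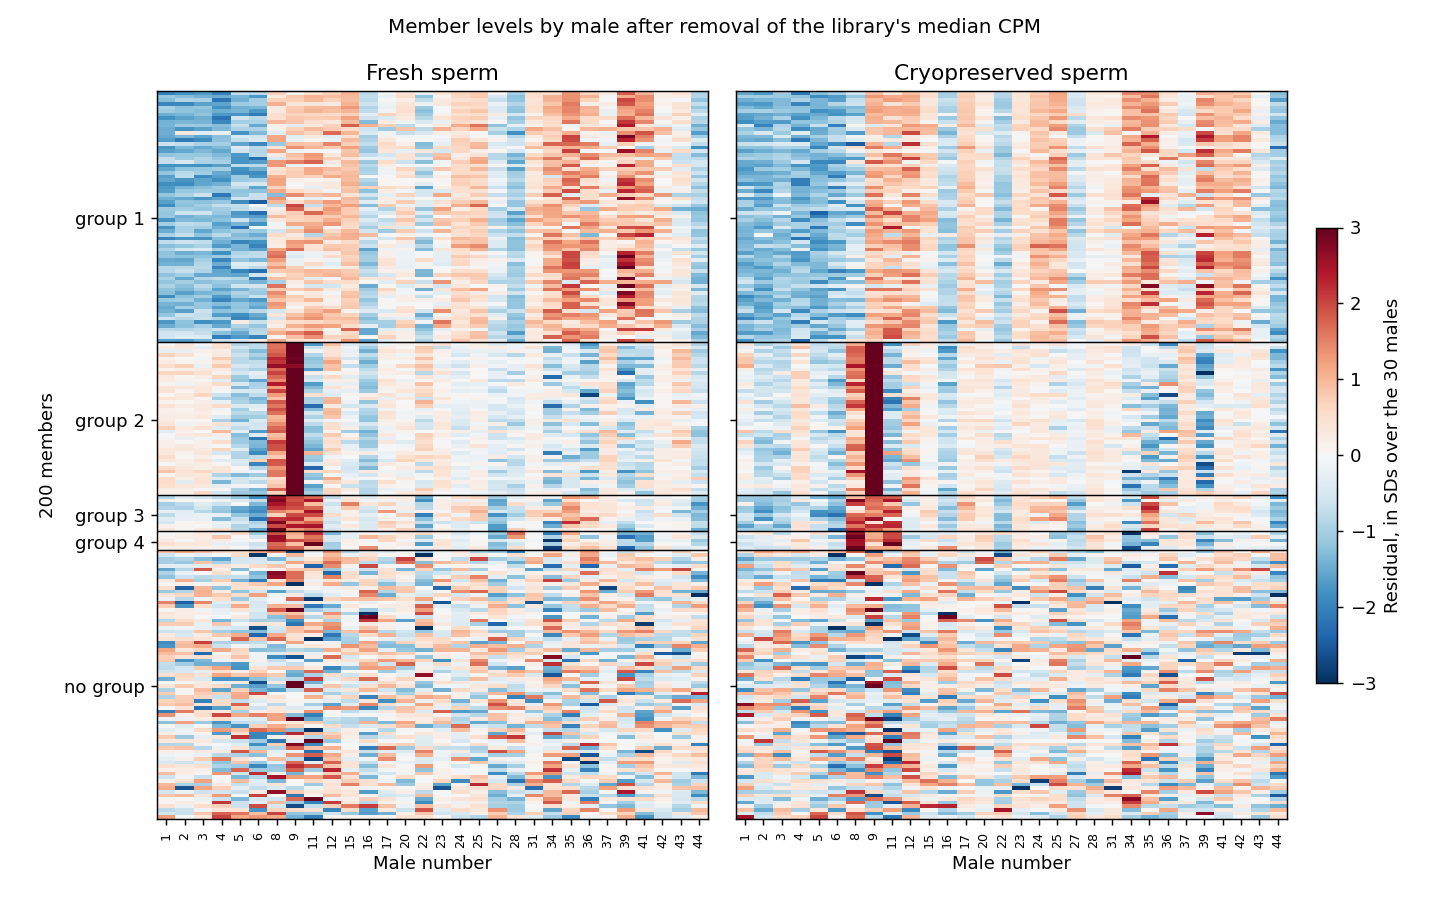
Residual of each of the 200 members (rows, ordered by group) in each of the 30 males (columns), for fresh and cryopreserved sperm, in units of the SD of that member over the 30 males, with colours ending at 3 SDs on either side. Groups 1 to 4 hold 69, 42, 10 and 5 members and the last block the 74 ungrouped members. The low males 1 to 6 in group 1 and the high male 9 in group 2 are seen in both treatments.

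Group 1, the largest with 69 members, was lowest, or close to it, in males 1 to 6. The level of the group, taken as the geometric mean of its members, was 3.63 to 10.2 CPM fresh and 3.94 to 9.83 CPM cryopreserved in males 1 to 6. The highest mean residuals over both treatments were those of males 34, 35, 39 and 41, at 22.0 to 69.0 CPM fresh and 22.7 to 67.4 CPM cryopreserved. In CPM these 4 did not stand above the 16 males not named here, which ran from 7.37 to 55.0 CPM fresh and from 4.83 to 74.1 CPM cryopreserved, with the 74.1 CPM in male 25. Males 16, 22, 27 and 44 lay at 4.99 to 12.2 CPM fresh and 5.43 to 14.6 CPM cryopreserved. Their mean residuals were -0.96 to -0.41 fresh and -1.09 to -0.60 cryopreserved. Those of males 1 to 6 were lower in fresh sperm, at -1.40 to -1.16, and ran from -1.39 to -1.08 in cryopreserved sperm. The group's mean residual had an r of 0.88 between treatments. It went down with sequencing depth: its r with the log2 of total counts was -0.63 over the 30 fresh and -0.50 over the 30 cryopreserved libraries. The 4 males with the highest mean residuals all had a shallow library. Their residuals ran from 0.94 to 1.45 fresh and from 0.84 to 1.24 cryopreserved. Male 25, with both libraries deep, had residuals of 0.66 fresh and 1.00 cryopreserved. A part of depth in the level of group 1 was not tested.

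AUIFUG00000030222 (rank 112, r of 0.789), the member with the highest mean CPM, belongs to group 1. It was the only member among the 100 most abundant genes of fresh sperm. It ran from 7.71 over a median of 449.7 to 3275 CPM in fresh sperm and from 14.7 over a median of 507 to 6658 CPM in cryopreserved sperm. In male 6 it was at 7.71 CPM fresh and 25.6 CPM cryopreserved, and in male 5 at 22.5 and 18.2 CPM. In male 20 it was at 2516 and 2971 CPM, and in male 23 at 2625 and 2809 CPM. Males 8 and 28 went against their own second library, with 393.8 CPM fresh and 14.7 CPM cryopreserved in male 8, and 41.4 CPM fresh and 1816 CPM cryopreserved in male 28.

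Group 2, with 42 members, had its highest level in male 9. The group's level was 52.3 CPM fresh and 50.8 CPM cryopreserved in male 9, and 19.0 and 10.9 CPM in male 8. In the other 28 males it was 1.61 to 23.0 CPM fresh and 2.00 to 22.7 CPM cryopreserved. The median r of the 42 members was 0.808 over all males and 0.569 without male 9, and the median rho over ranks of males was 0.548. Without male 9, 24 of the 42 members still fell into 1 group, and 26 did so without the males with a shallow library. The 42 members were chosen and grouped with male 9 included, so these counts are a description. How far the co-variation rested on male 9 was not tested. In 9 of the 42 members r fell below 0.5 when 1 male was left out. Both libraries of male 9 were shallow, with 2620325 and 2610086 counts, and the mean residual of the group had an r of -0.13 fresh and 0.07 cryopreserved with log2 total counts.

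AUIFUG00000013246 (rank 23, r of 0.848) shows the group 2 pattern with male 8 nearly as high as male 9. In male 9 it was at 66.4 CPM fresh and 29.1 CPM cryopreserved, and in male 8 at 64.1 and 20.1 CPM. In the other 28 males it ranged from 0 to 8.99 CPM fresh and from 0 to 7.06 CPM cryopreserved, so both males lay above all others in both treatments. Several members of the group reached the minimum mean of 5 CPM only through the males in which they were high: 35 of the 42 reached it without male 9 and 33 without males 8 and 9. AUIFUG00000013246 was not ranked in the 20 males without a shallow library.

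Group 3, with 10 members, was high in males 8, 9, 11 and 35, at 85.1 to 112.6 CPM fresh and 98.9 to 106.7 CPM cryopreserved. It was low in males 6, 22, 27 and 44, at 23.5 to 31.0 CPM fresh and 26.1 to 34.4 CPM cryopreserved. Group 4, with 5 members, had its highest residuals in males 8, 9 and 11 and its lowest in males 34 and 39. In CPM, males 8, 9 and 11 were at 22.6 to 47.3 fresh and 21.6 to 51.7 cryopreserved, which overlapped the 7.76 to 42.0 and 9.60 to 43.0 of the males not named. Groups 3 and 4 went together over males, with an r of 0.69 between their mean residuals, and group 3 had an r of 0.64 with group 1. With log2 total counts, the mean residual of group 3 had an r of -0.48 fresh and -0.39 cryopreserved. That of group 4 had an r of 0.01 and 0.05. All of males 8, 9, 11, 34, 35 and 39 had a shallow library.

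**Figure D3:**
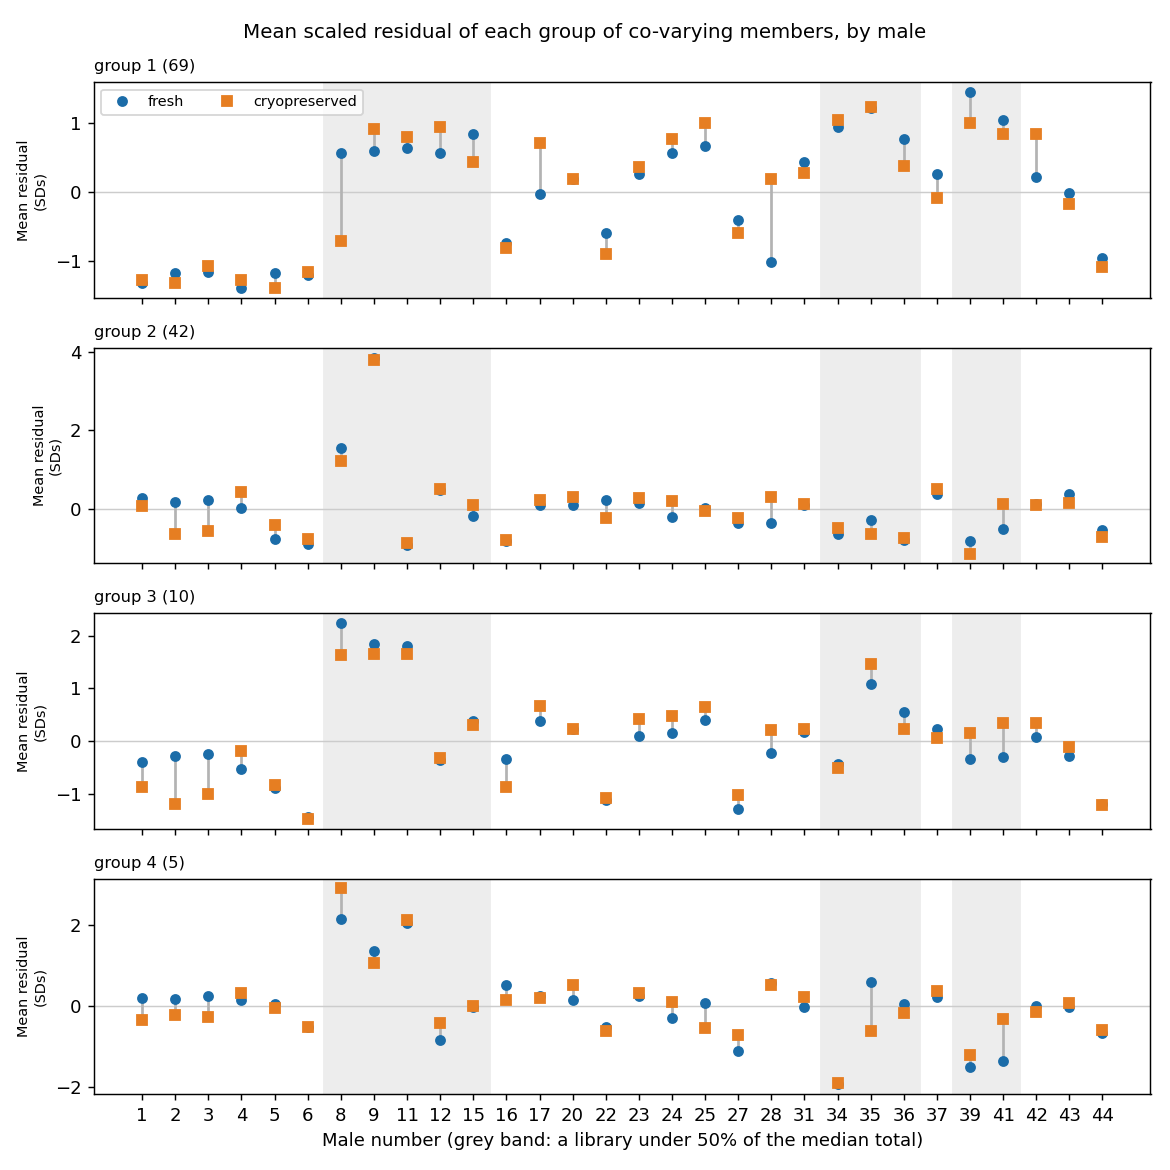
Mean residual of groups 1 to 4, in SDs, for each of the 30 males, with fresh libraries as circles, cryopreserved libraries as squares and a line joining both libraries of a male. Grey bands mark the 10 males with a library under 50% of the median total. Males 1 to 6 lie at or near the bottom of group 1, male 9 at 3.86 and 3.80 in group 2, and males 8, 9 and 11 lie highest in group 4.

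Males with a shallow library stood at the high end of all 4 groups and at the low end of groups 2 and 4. The males named as low in groups 1 and 3 had no shallow library. The same rule was applied to the 20 males without a shallow library, with the regression fitted anew. Of the 200 members 44 were again among the first 200 genes. All 44 were ungrouped members (44 of 74), and 0 of the 126 members of groups 1 to 4 were among them. In groups 1 and 2, 66 of 69 and 37 of 42 members could still be ranked. By co-variation, 68 of the 69 members of group 1 still fell into 1 group without the males with a shallow library. They had been grouped with these males included, so this is a description. The median r of the 192 members that could still be ranked was 0.459, against 0.158 for all 22527 genes ranked in these males, and 111 members had an r under 0.5. By kind, the median r was 0.781 in the ungrouped members, 0.406 in group 1, 0.261 in group 2, 0.335 in group 3 and 0.581 in group 4.

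These values depended on the regression line. With the residuals of the 30-male regression kept and only the 10 males dropped, the median r over the 20 males was 0.833 in the ungrouped members, 0.797 in group 1, 0.722 in group 3, 0.615 in group 4 and 0.423 in group 2. Group 1 thus kept its r between treatments under one line and not under the other. With log2 total counts added to the regression over all 30 males, 3 of the 69 members of group 1 were among the first 200 genes. The numbers were 42 of 42 in group 2, 7 of 10 in group 3, 5 of 5 in group 4 and 63 of 74 ungrouped members. The median r in that setting was 0.590 in group 1, 0.790 in group 2 and 0.771 in group 3. It was 0.783 in group 4 and 0.789 in the ungrouped members. Without male 9 and with the regression refitted, 69 of 69 members of group 1 were among the first 200. So were 5 of 42 members of group 2 and 65 of 74 ungrouped members. With CPM scaled by TMM, 38 of 69 members of group 1 and 24 of 42 of group 2 were among the first 200. So were 3 of 10 in group 3, 3 of 5 in group 4 and 29 of 74 ungrouped members. Without residuals the numbers were 38 of 69, 9 of 42, 6 of 10, 1 of 5 and 36 of 74, in the same order. Which kind kept the larger share thus depended on the setting.

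**Figure D4:**
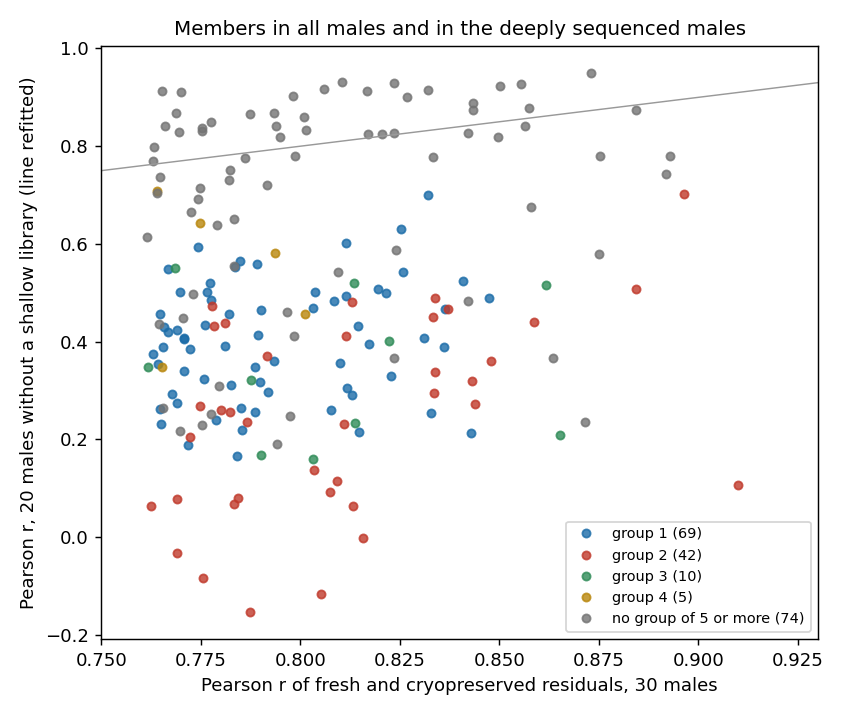
Pearson r between fresh and cryopreserved residuals for each member over the 30 males (x axis) and over the 20 males without a shallow library, with the regression refitted (y axis), coloured by group. The line marks equal values. Most ungrouped members (grey) lie near or above the line, with 48 of 74 at 0.7 or more, while groups 1 and 2 have medians of 0.406 and 0.261.

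The 74 ungrouped members shared no common order of males, although 27 of them joined 1 to 3 others and some shared low males, such as males 2 and 23 in the members of ranks 18 and 26. The r between 2 of them had a median of 0.00, and its absolute value a median of 0.17. Blocks of 5 or more had been taken out by the grouping, so these low values follow in part from how the ungrouped members were defined. Their median r between treatments was 0.797 over all males with a median rho of 0.766, and their mean level had a median of 22.6 CPM with a range of 5.00 to 92.2 CPM. Their median SD of log2(CPM + 1) over males was 1.10 (fresh) and 1.06 (cryopreserved). When 1 male was left out, r stayed at 0.7 or above in 67 of the 74 and fell below 0.5 in 1. It also stayed at 0.7 or above in 68 of the 69 members of group 1 and 10 of the 10 of group 3. In groups 2 and 4 it did so in 8 of 42 and 3 of 5. Of the 24 stepped members 13 were ungrouped, among them those of ranks 8, 9, 18 and 26.

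Most libraries were closest to the other library of the same male. Over the 200 members, 27 of the 30 fresh libraries had a higher r with the cryopreserved library of their own male than with that of any other male, and so did 27 of the 30 cryopreserved libraries with the fresh ones. The rule itself used the pairing by male, so this describes the set and is no check of it. The r of a male's own pair ran from 0.352 to 0.955, with a median of 0.792 and the highest value in male 9. The exceptions were the fresh libraries of males 1, 3 and 28 and the cryopreserved libraries of males 4, 28 and 42. The fresh library of male 1 was closest to the cryopreserved library of male 4, with an r of 0.798 against 0.751 for its own pair. Over the 74 ungrouped members alone, 28 of 30 fresh and 30 of 30 cryopreserved libraries were closest to their own male, and the own pair's r had a median of 0.849 with a range of 0.491 to 0.941.

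**Figure D5:**
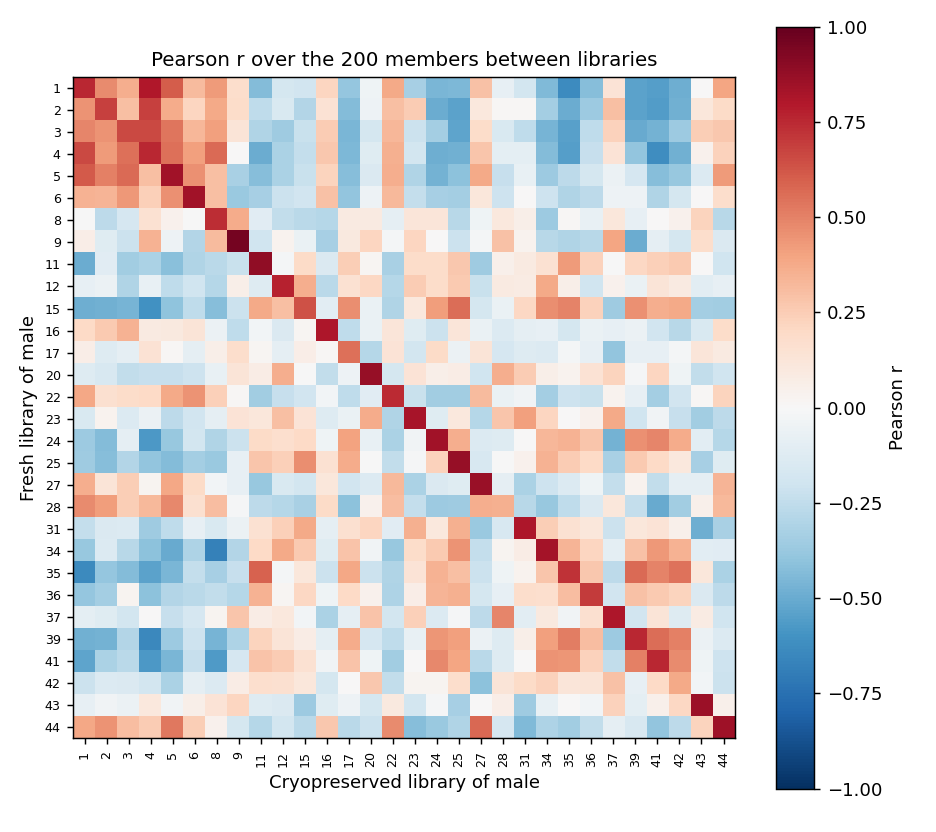
Pearson r over the 200 members between each fresh library (rows) and each cryopreserved library (columns), on residuals scaled by member. The diagonal holds the 2 libraries of the same male, with a median of 0.792, and male 28 has the lowest value there (0.352). The block at the top left shows that libraries of males 1 to 5 are also alike across males.

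No member differed between cryopreserved and fresh sperm past the threshold. The mean difference between treatments does not enter r, and it was tested with edgeR's quasi-likelihood test over 32336 genes. This fit left out the pairing by male, while members were chosen for levels that both libraries of a male share. The p-values of the members in this fit thus depend in part on the choice. The test called 0 genes in all (0%) and 0 of the 200 members at an adjusted p under 0.05. Unadjusted, 716 genes (2.21%) and 0 members had a p under 0.05, and the smallest unadjusted p of a member was 0.0526. The fitted log2 fold change (cryopreserved against fresh) of the members ran from -0.91 to 0.58 with a median of 0.01, beside a median of 0.02 over all genes tested. It was above 0 in 106 members and below 0 in 94 (54% of all genes tested were above 0). The largest was that of AUIFUG00000013246, at -0.91 with a SE of 0.52 and an adjusted p of 1.00 in the same test, and it was higher in cryopreserved sperm in 12 of the 30 males.

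With the male as the replicate block, edgeR again called 0 members and 0 genes. Unadjusted, 17 of the 200 members and 973 of the 32336 genes tested had a p under 0.05. With the log2 of the median CPM as a covariate beside the block, edgeR called 0 as well, with a smallest adjusted p of 0.379 among members. There 39 of the 200 members and 2644 of the 32336 genes had an unadjusted p under 0.05. In both fits with the block this share was larger among members than among all genes, unlike in the fit without it. Members were chosen for levels shared by both libraries of a male, so these shares, with and without the block, are given as a description. A p above the threshold does not show that the levels were equal. The 30 males of a treatment are separate animals. The spread behind the p-values is that between males without the block, and that of the treatment difference within males with it.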

How the data were processed

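The deposited values are unscaled gene counts (whole numbers of reads), which the authors put in 1 table per treatment. FastQC 0.11.6, Trimmomatic 0.39, TopHat2 2.1.1 and bedtools were used upstream, per the submitters' processing notes, with no role given. Not given in the sources used here are the build, the annotation and how reads were assigned to genes. The library kit was for ribosome-depleted total RNA, per the labels' protocols, while the labels name polyA RNA as the molecule. Libraries were paired by the male number of the labels, which marks the same animal. The fresh column of male 43 carries another trailing number than its label and was assigned by male and treatment. No 2 columns were identical.

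Counts were scaled to CPM by column sums, with a pseudocount of 1. Treatments were compared with edgeR 4.0.16 (filterByExpr, TMM, quasi-likelihood test, Benjamini-Hochberg adjustment, R 4.3.3), and DESeq2 1.42.0 was an alternative. Both the edgeR step and the rule were tested on simulated data. Alternatives changed the scaling, the regression, the pseudocount, the level minimum, the males and the thresholds. The members and every definition were chosen with earlier results of these data known. Identifiers were printed for 4 members by rule: the highest r, the on/off member, the highest mean CPM and the largest fold change. Gene lists could not be used without gene names.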

Additional observations from a re-analysis of the deposited data

How the results depend on the processing

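Of 13 alternatives, 6 left at least 148 of the 200 members in place, and 185 was the highest number. The number shared was 44 without the males with a shallow library, 90 without residuals, 97 with TMM scaling, 104 with a mean CPM of 20 or more, 111 with Spearman's rho, 120 with log2 total counts in the regression and 124 without males 8 and 9. Only 104 members reached a mean of 20 CPM, so that setting kept every member it could rank. The median r (or rho) of the members was 0.459, 0.734, 0.702, 0.741 and 0.760 without the shallow males, without residuals, with TMM, with Spearman's rho and with total counts. Without male 9 or male 35, 153 and 157 members were shared. The on/off count fell from 1 to 0 with an on state of 10 CPM and with at most 3 males in between. Members resting on 1 male rose from 10 to 27 with a limit of 0.6, and to 27 when 2 males were left out together. Members in groups of 5 or more numbered 106 to 145 over 6 alternatives. Stepped members numbered 25 in the 20 deep males, where 192 members were ranked, beside 148 of all 22527 genes ranked there (0.657%). Of these 25 members 5 were among the 24, so which members are stepped depended on the males. All 7 alternatives of the treatment test called 0 members and 0 genes. By DESeq2, 1 member and 764 genes had an unadjusted p under 0.05. The replicate block (male), a paired fit, also called 0 members. The alternatives without male 9, without males 8 and 9, and the whole count of stepped members were chosen after seeing the data. Depth limits low levels: 52 members had a library at 0 counts. The causes of these changes were not tested.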
